A study of Mus musculus with 8 samples.

Results

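The control mouse aorta was described from 4 Affymetrix arrays, out of 8 arrays in the series. They were chosen by their source label alone, and the 4 arrays of mutant aorta were not compared with them. Each array measured messenger RNA of aorta from mice labelled 4 month-old, starting from 2 ug of total RNA. The controls are labelled SRF-flex2neo, a modified allele of the gene of serum response factor (SRF), and were littermates of mutants that also carried SM22CreERT2ki/+, a Cre recombinase driven from a smooth muscle gene. Control mice had the same tamoxifen as the mutants, 1 mg injected into the abdomen on 3 days, and died 8 days after injection. The baseline is therefore that of tamoxifen-treated mice with the SRF-flex2neo allele, and no untreated or wild-type aorta was compared. The titles end in a set number: controls 1 and 2 belong to set 1, and controls 3 and 4 to set 2. The labels do not say what a set stands for, which stretch of aorta was taken, how it was cleaned, or whether each array held a separate mouse, so the spread between arrays may be partly technical.

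The wall of the aorta has an inner layer of endothelial cells, a middle layer of smooth muscle cells between elastic sheets, and an outer adventitia of fibroblasts, collagen, nerves and small vessels, with fat around it. Smooth muscle cells contract through actin and myosin filaments and also make most of the elastin and collagen of the middle layer. SRF binds a short DNA element, the CArG box, near many contractile and cytoskeletal genes. In RNA of a whole tissue, fewer cells of a type and less RNA per cell cannot be told apart.

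The table gave a value to 18193 genes, each represented by the brightest of its probe sets with a single gene symbol. Values are on a log2 scale, so 1 unit is a 2-fold difference. The brightness of a probe set depends on its sequence as well as on the amount of RNA, so the order of genes is approximate. The distance from the brightest probe set of a gene to the next had a median of 1.12 over the 9010 genes with at least 2 probe sets, and neighbours in the order are often closer than that. The median over all genes was 5.71. A mean above 8 was reached by 5692 genes (31.3%), one above 12 by 568, and one above 14 by 74. To show the values of genes that aorta is not known to use, 25 genes of other organs were read in the same way, such as Alb of liver (2.11), Ins2 of pancreas (1.92), Prm1 of sperm (3.19) and Gfap of brain (2.77). Of these, 24 were at or below the mean of the skin keratin gene Krt5 (3.74), and the remaining one was the drug-metabolizing enzyme gene Cyp2e1 (8.94). Levels up to that of Krt5 are called the off-tissue range here, a bound taken after the values were seen. Over all 18193 genes, 10675 lay above this range and 7518 within it, which is the background for the list counts below.

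The most abundant messages were those of the actin cytoskeleton of smooth muscle, of protein synthesis and of extracellular matrix. Acta2, the smooth muscle actin, stood at rank 3, with 15.40, 15.33, 15.39 and 15.36 in controls 1 to 4. Tagln, the actin-binding protein SM22, followed at rank 4 with 15.30, 15.29, 15.37 and 15.33. In these brightest probe sets both varied by less than 0.1 between arrays, and the highest value of any array was 15.54. The dimmer probe sets of Acta2 varied more, with SDs of 0.52 and 0.60. Their values in controls 1 to 4 were 12.78, 12.20, 11.63 and 11.75, and 10.40, 10.13, 9.04 and 9.67. The first rank was held by the ribosomal protein gene Rps29 (15.51 ± 0.04, SD, n = 4) and the second by Vim (15.47 ± 0.02), the intermediate filament protein of mesenchymal cells. Cytoplasmic actin Actb (15.27 ± 0.03), beta-tropomyosin Tpm2 (15.17 ± 0.04) and the regulatory myosin light chain Myl9 (15.15 ± 0.09) came next. Rank 50 lay at 14.31 and rank 100 at 13.74, so the 100 highest genes span under 2 log2 units. At this end of the scale differences can be compressed, and the order of neighbours such as Acta2 and Tagln is within the spread between arrays.

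**Figure D1:**
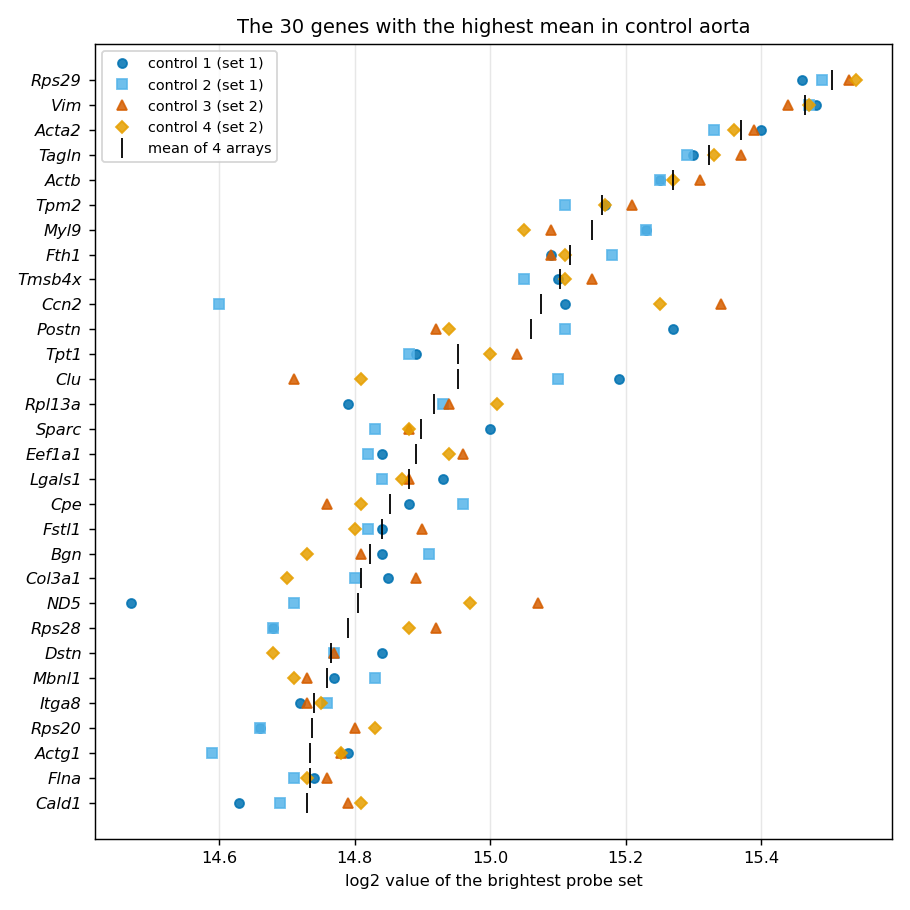
The 30 genes with the highest mean, in order of the mean; the horizontal axis is the log2 value, with 1 marker per control array and a black bar for the mean. The range between arrays is under 0.1 for Acta2 and Vim and wider for Ccn2, Clu and ND5.

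Counting each gene once, the 50 highest held 8 genes of the smooth muscle contractile list, 10 ribosomal proteins, 3 translation factors, 3 collagens and 8 genes of proteoglycans and matricellular proteins. The 100 highest held 15, 21, 4, 3 and 10 of these. For scale, the contractile list makes up 0.159% of all genes and ribosomal proteins 0.264%. The count of ribosomal proteins depends on the probe sets used: it was 14 without probe sets whose suffix marks a shared or mixed target (_x_at or _s_at), an alternative added after the data were seen. It was 3 when those with the suffix _a_at were left out too. The contractile count under the same alternatives was 16 and 15. Ribosomal genes have many near-identical copies in the genome, so their single levels are uncertain.

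Smooth muscle contractile genes were abundant as a group. Of 30 genes on the list, 29 had a probe set. All 29 lay above Cyp2e1, the highest of the 25 genes of other organs, 25 were among the 500 highest genes, and the median was 13.74 against 5.71 for all genes. Beside those already named, filamin A Flna (14.74 ± 0.02), caldesmon Cald1 (14.73 ± 0.08) and the smooth muscle myosin heavy chain Myh11 (14.69 ± 0.04) were the highest. Tropomyosin Tpm1 stood at 14.42 ± 0.05, calponin Cnn1 at 14.26 ± 0.22, and myosin light chain kinase Mylk, which switches on contraction, at 14.12 ± 0.05. Vcl, the vinculin that anchors actin at cell contacts, stood at 14.07 ± 0.05. The lowest were the intermediate filament genes Synm (11.10) and Des (10.42) and the essential light chain Myl6 (10.36, rank 1786). The level of Myl6 rests on a single probe set, and probe sets with several symbols were left out, so it may be read too low. Dimmer probe sets give lower levels for the same genes: those of Acta2 averaged 12.09 and 9.81, and the other probe set of Myh11 averaged 8.76. With the median over the probe sets of each gene the list median was 12.15. The median SD of the list was 0.099 between arrays, against 0.107 for all genes. The list lies within the highest of 10 equal groups of genes by level, where the median SD was 0.144.

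Myl9 is the strongest contractile gene with a CArG box, the element bound by SRF, among the promoters at hand, and its promoter is shown. That of Vcl is shown because it carries another. The promoter of Vim, the gene at rank 2, is shown because it holds a TATA box at the usual distance from the start. The sequences are from RefSeq (GRCm38.p6), 250 bases before to 50 after the start of the gene, 5′ to 3′ on the strand of the gene, with the CArG box (Myl9, Vcl) or TATAAA (Vim) in capitals. They lie at chr2:156775214-156775513 (Myl9, plus strand), chr14:20929148-20929447 (Vcl, plus strand) and chr2:13574061-13574360 (Vim, plus strand).
Myl9: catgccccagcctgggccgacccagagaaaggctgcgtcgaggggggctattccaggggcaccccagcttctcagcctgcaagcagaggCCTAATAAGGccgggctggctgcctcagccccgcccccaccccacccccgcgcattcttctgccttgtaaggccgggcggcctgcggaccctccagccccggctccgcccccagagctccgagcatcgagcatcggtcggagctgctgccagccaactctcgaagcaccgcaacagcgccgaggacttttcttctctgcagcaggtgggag
Vcl: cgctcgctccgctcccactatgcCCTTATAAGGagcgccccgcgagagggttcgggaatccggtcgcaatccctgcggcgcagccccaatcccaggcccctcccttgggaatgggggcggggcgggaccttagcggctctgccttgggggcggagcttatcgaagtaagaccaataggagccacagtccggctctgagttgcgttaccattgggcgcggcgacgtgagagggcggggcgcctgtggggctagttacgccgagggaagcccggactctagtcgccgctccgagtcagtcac
Vim: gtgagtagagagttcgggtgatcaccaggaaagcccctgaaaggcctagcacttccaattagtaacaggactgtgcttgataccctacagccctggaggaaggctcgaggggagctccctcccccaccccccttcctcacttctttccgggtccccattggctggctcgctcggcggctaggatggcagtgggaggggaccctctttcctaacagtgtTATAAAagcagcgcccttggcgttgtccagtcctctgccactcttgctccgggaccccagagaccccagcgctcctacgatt

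The first base of the CArG box lies 161 bases before the start of Myl9 and 227 before that of Vcl, and the TATAAA of Vim lies 32 bases before its start. Promoters were at hand for 25 of the 29 contractile genes, and those of Tagln and Myh11 were among the missing ones, so they were not searched. Of the 25, 4 held a CArG box: Myl9, Vcl, Fhl1 and Myl6. Among the 100 highest genes, 5 of 77 with a promoter held one (6.49%): Myl9, Vcl, Fhl1, the cytoplasmic actin Actg1 and the ribosomal protein Rpl10a. Over all ranked genes with a promoter the share was 1.58%, and over the 1000 highest 3.21%. TATAAA on either strand was found in 16 of the 77 (20.8%), against 11.5% of all ranked genes. These are counts of letters in a short window, with no test. The CArG box was searched as a whole, with no mismatch, and a gene may have boxes elsewhere.

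Genes that control smooth muscle contraction covered a wide range of levels. Of 32 listed, 26 had a probe set, the median was 9.51 (7.98 with the median over the probe sets of a gene) and 23 lay above the off-tissue range. The highest were Rgs5 (14.62 ± 0.16), which shortens signals of G protein-coupled receptors, and Rock1 (13.77 ± 0.39), a kinase that raises calcium sensitivity. The calcium pump of the store, Atp2a2, was at 13.51, and both subunits of the nitric oxide receptor guanylate cyclase were abundant, Gucy1b1 at 13.13 and Gucy1a1 at 12.94. Pde5a, which breaks down cyclic GMP, was at 12.06. The potassium channel subunits Kcnmb1 and Kcnma1 were at 10.92 and 10.88. The angiotensin receptor genes Agtr1a and Agtr1b were at 5.22 and 7.03, and the vasopressin receptor Avpr1a at 4.47. The channel Trpc6 (3.01), the adrenergic receptor Adra1b (2.55) and the serotonin receptor Htr2b (2.05) were in the off-tissue range.

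Among regulators of transcription in smooth muscle, Myocd stood highest. Myocd encodes myocardin, the muscle cofactor of SRF, and was at rank 297 with 12.17, 12.06, 13.37 and 13.22 in controls 1 to 4. Both arrays of set 2 lay above both of set 1. The MEF2 factors Mef2a (11.90) and Mef2c (11.90), the forkhead factor Foxc1 (11.66) and the T-box factor Tbx18 (11.16) were next. Srf itself was at 10.30 ± 0.17. The 5 lowest of the 28 factors, all in the off-tissue range, were Nkx2-3 (3.14), Tcf21 (3.05), Hand2 (2.45), Meox1 (2.10) and Gata4 (2.10), which are known from heart, gut and other mesenchyme.

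Hox genes, which mark position along the body axis, were read as a family of 33. Of these, 18 lay above the off-tissue range and 15 within it, a split close to that over all genes (10675 above and 7518 within). Hoxb3 was highest at 8.85 ± 0.28, followed by Hoxa5 (8.71 ± 0.16), Hoxa3 (8.62 ± 0.57), Hoxa9 (8.23 ± 0.64), Hoxb2 (8.02 ± 0.24) and Hoxb5 (7.80 ± 0.31). These neighbours in the order differ by less than the gap between probe sets of a gene. Hoxc10 was at 6.67 and Hoxa10 at 5.82, while Hoxa13, Hoxb13, Hoxc13 and Hoxd13, of the far posterior group, were at 2.28, 2.63, 2.30 and 2.28. The anterior gene Hoxb1 (2.11) and the trunk genes Hoxb7 (2.20), Hoxb9 (2.16) and Hoxc9 (2.19) were in the off-tissue range too.

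Single matrix genes were among the most abundant, while the matrix lists as a whole lay below the contractile list. The list medians were 12.04 for collagens (11.09 with the median over the probe sets of a gene), 12.001 for proteoglycans and matricellular proteins (10.25) and 11.49 for elastic fibre genes (8.82), against 13.74 for contractile genes (12.15). Periostin Postn, a matrix protein of load-bearing connective tissue, had 15.27, 15.11, 14.92 and 14.94 in controls 1 to 4. Col3a1, the type III collagen of stretchable tissue, had 14.85, 14.80, 14.89 and 14.70. Eln, which encodes elastin, had 13.99, 14.08, 13.72 and 13.73. Arrays of set 2 lay below those of set 1 for Postn and Eln, while the sets overlapped for Col3a1. The basement membrane collagen Col4a1 was at 14.43 ± 0.21, and Col1a2 of type I collagen at 14.32 ± 0.19. The cartilage-type collagens Col2a1 (2.18), Col9a1 (2.69), Col10a1 (2.07) and Col11a1 (2.80) were the 4 of 23 collagens in the off-tissue range.

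Of 20 genes of elastic fibres, 17 had a probe set and 9 were among the 1000 highest. Fbln5 (13.68 ± 0.12), which links elastin to cells, Loxl1 (13.23) and Lox (12.43), which cross-link elastin, and the latent TGF-beta binding proteins Ltbp3 (13.12) and Ltbp1 (13.11) were the highest beside Eln. Fbn2, a fibrillin best known from development, was at 2.80. Among proteoglycans and matricellular proteins, 19 of 34 with a probe set were in the 1000 highest genes. Ccn2, a growth factor-induced matrix protein, had 15.11, 14.60, 15.34 and 15.25 in controls 1 to 4, with control 2 lowest. Clu, which encodes the chaperone clusterin, had 15.19, 15.10, 14.71 and 14.81, and both arrays of set 2 lay below both of set 1. Sparc (14.90 ± 0.07), the galectin Lgals1 (14.88 ± 0.04), biglycan Bgn (14.82 ± 0.07) and Mgp (14.67 ± 0.05), an inhibitor of calcification, were steadier. Vtn, the liver protein vitronectin, was in the off-tissue range (2.15). Of integrins, the matrix receptors, Itga8 stood highest at 14.74 ± 0.02, then Itgb5 (13.21) and Itgb1 (13.11).

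Markers of other cell types of the wall lay lower. Endothelial markers had a median of 7.73, with 0 of 20 among the 1000 highest genes and all 20 above the off-tissue range, though Robo4 by a small margin. Vwf, the clotting factor made by endothelium, was highest with 11.28, 10.84, 10.27 and 9.70 in controls 1 to 4, followed by the phosphatase Ptprb (10.05) and the adhesion molecule Pecam1 (9.89). The receptor Robo4 (3.76) and Emcn (4.66), a sialomucin of capillaries and veins, were lowest. Of genes of arterial identity, Hey2 was at 10.82, Jag1 at 10.65, Efnb2 at 10.09, and the connexin Gja5 in the off-tissue range at 3.06. Of genes of venous identity, Nr2f2, which other cells express too, was at 9.61 and Ephb4 at 6.71.

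Markers of adventitial fibroblasts had a median of 9.58 (7.77 with the median over the probe sets of a gene), and 16 of 17 lay above the off-tissue range. Gsn (14.24) and Dcn (12.64) led the list, but smooth muscle expresses both. Of markers closer to fibroblasts, Dpt was at 10.96, Pi16 at 9.75, Cd34, which endothelium also expresses, at 9.58 and Pdgfra, a receptor of platelet-derived growth factor, at 8.94. Macrophage markers had a median of 5.76, and 15 of 19 lay above the off-tissue range. The lysozyme gene Lyz1 (10.24) and the coagulation factor gene F13a1 (8.88) were highest, the receptor Csf1r was at 7.50 and Adgre1 at 4.66. Aif1 (3.36), Cd68 (3.11), Cd14 (2.99) and Folr2 (2.47) were in the off-tissue range. Pericyte markers had a median of 9.82, which was 9.08 with the median over the probe sets of a gene and 8.34 without probe sets of suffix _x_at or _s_at. Rgs5, Abcc9 (13.48) and Pdgfrb (12.89) are shared with smooth muscle and were high, while Higd1b (3.12), Ndufa4l2 (3.02) and Cox4i2 (2.42) were in the off-tissue range.

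**Figure D2:**
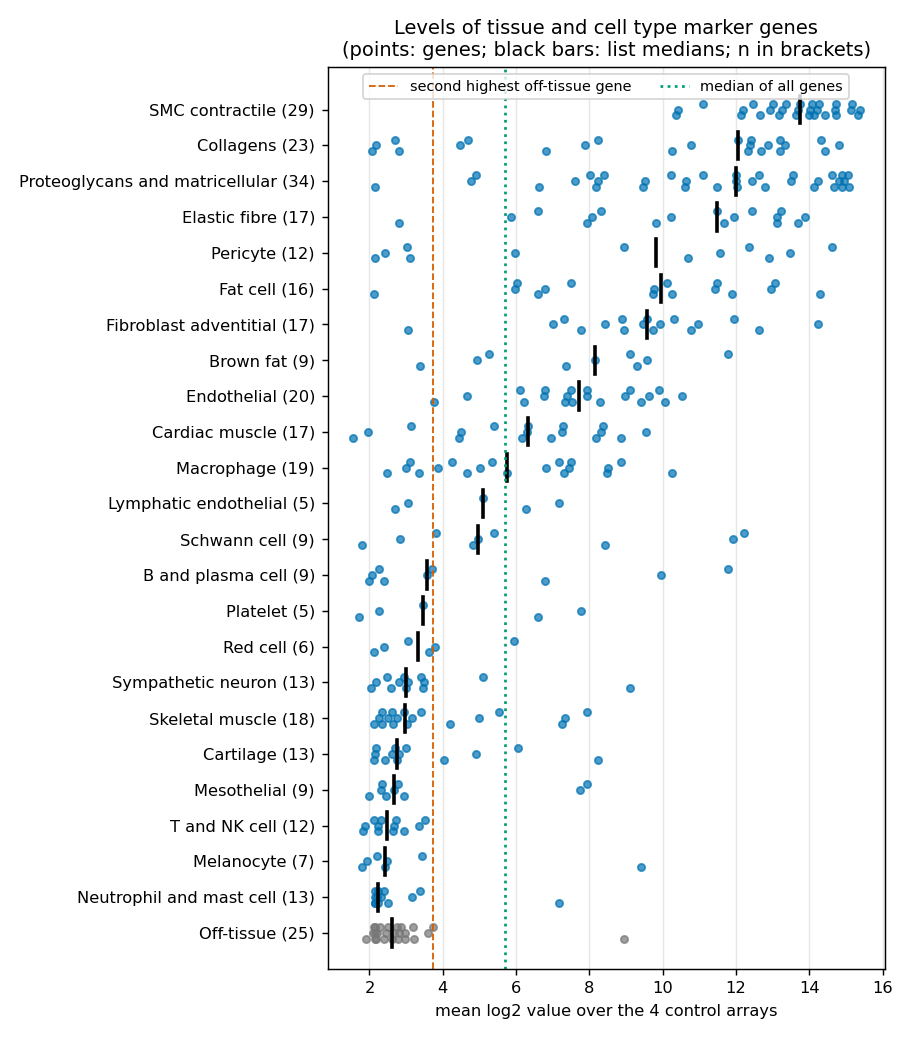
Mean log2 value over the 4 control arrays (horizontal axis) of each gene on 24 marker lists, with a point per gene and a black bar at the list median. The contractile list has the highest median (13.74), endothelial markers lie around 7.73, and most genes of the lists from sympathetic neuron downward lie left of the dashed line at 3.74, the level of Krt5.

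Markers of T and NK cells, B and plasma cells (6 of 9), neutrophils and mast cells, and sympathetic neurons were mostly in the off-tissue range. Those of platelets and Schwann cells were mixed. All 12 markers of T and NK cells were in that range, with Cd8a highest at 3.53, and so were 12 of 13 markers of neutrophils and mast cells. The exception there was the receptor Kit (7.16), which other cells also express. Of 10 red cell genes listed, 6 had a probe set with a single symbol. Among these, the globin genes Hba-a1 (2.39) and Hba-a2 (2.14) were in the off-tissue range and Hbb-b2 was at 5.93. Probe sets with several symbols were left out, so globin RNA read by such probe sets would be missed. The sympathetic neuron genes Th (2.18), Dbh (2.95) and Npy (3.47) were in the off-tissue range, as were 11 of 13 on that list. Of 5 platelet genes with a probe set, Pf4 (7.78) and Ppbp (6.61) lay above it and 3 within it. Of 9 Schwann cell genes with a probe set 7 lay above it. Mag (1.81) and Cdh19 (2.85) were within it, and the myelin gene Mbp was at 5.41 ± 1.47. Ncam1 (12.22) and Pmp22 (11.91) of that list were among the 1000 highest genes, but neither is particular to Schwann cells. Of genes of cell division, Ccnd2 (12.34), a cyclin of the growth phase, was highest, and Mki67 was at 5.82. The mitotic genes Plk1 (2.07), Aurka (2.25) and Ccnb2 (2.28) were in the off-tissue range. All 4 arrays held Y-linked transcripts: Eif2s3y had 10.07, 10.23, 9.99 and 9.91 in controls 1 to 4. Xist, transcribed from the inactive X chromosome of females, had 2.76, 2.91, 2.93 and 3.17.

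Fat cell genes ranged widely around a high median. Of 18 on the list, 16 had a probe set, with a median of 9.95 (8.33 with the median over the probe sets of a gene). Fabp4, a fatty acid carrier of fat cells and capillary endothelium, had 13.89, 14.41, 14.55 and 14.30 in controls 1 to 4. Adipoq, the fat cell hormone adiponectin, had 9.85, 10.15, 10.64 and 10.36. Control 1 was the lowest and control 3 the highest for both. Leptin, Lep, was in the off-tissue range (2.11). Between these lay Slc2a4 (7.49), Cidec (6.79), Pparg (6.61), Lipe (6.02) and Retn (5.98). Lipe had 6.36, 7.27, 5.42 and 5.03, and was the 1 gene of the 16 with a lower mean in set 2, against 15 higher. Scd1 (13.06), which desaturates fatty acids, the carbonic anhydrase Car3 (12.95), the lipid droplet protein gene Plin4 (11.90), the fatty acid synthase Fasn (11.48) and the lipase Lpl (11.43) were the other high members.

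Brown fat genes were present and uneven. Ucp1, the uncoupling protein that defines brown fat, had 6.83, 9.43, 10.77 and 10.21 in controls 1 to 4. Cox7a1, a subunit of the respiratory chain in muscle and brown fat, had 4.0, 7.79, 9.17 and 8.47. Control 1 was the lowest of the 4 arrays for both, and for the brown fat genes Cidea (9.58 ± 0.84) and Elovl3 (4.92 ± 1.51) as well. Prdm16, a regulator of brown fat also active in arteries, was high and even at 11.78 ± 0.04. The mean of the 9 genes with a probe set was 6.03 in control 1, 7.74 in control 2, 8.73 in control 3 and 8.09 in control 4.

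Heart muscle genes had the largest median spread of the lists. Over 17 genes the median SD was 2.13, against 0.107 for all genes and 0.24 for genes with means between 5.71 and 7.12. The list mean was 4.70, 5.30, 8.11 and 6.49 in controls 1 to 4. Myh6, the heart myosin heavy chain, had 4.41, 7.52, 11.54 and 9.77. Tnnt2, cardiac troponin T, had 3.14, 6.55, 11.11 and 8.35. Both were lowest in control 1 and highest in control 3. Myh7, the other heart myosin heavy chain, ran the opposite way, with 8.59, 7.77, 6.35 and 6.31. Myl7, the light chain of the atrium, had 2.24, 2.28, 10.73 and 2.72, so it stood above the off-tissue range in control 3 alone. Actc1, cardiac actin, had 8.26, 6.50, 11.66 and 9.06. Myl2, the light chain of the ventricle, had 3.11, 6.98, 8.68 and 9.01, with control 4 and not control 3 the highest. The heart factor Nkx2-5 (1.97) and the hormone Nppb (1.55) were in the off-tissue range in all 4 arrays. The median of the heart list was 6.33, and with an array left out it was 6.91, 6.93, 5.91 and 6.13 (without controls 1 to 4). Of 18 skeletal muscle genes, 12 were in the off-tissue range, among them Pvalb (2.12), Atp2a1 (2.25) and Myh2 (2.35). Whether other tissue came with these aortas was not tested.

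**Figure D3:**
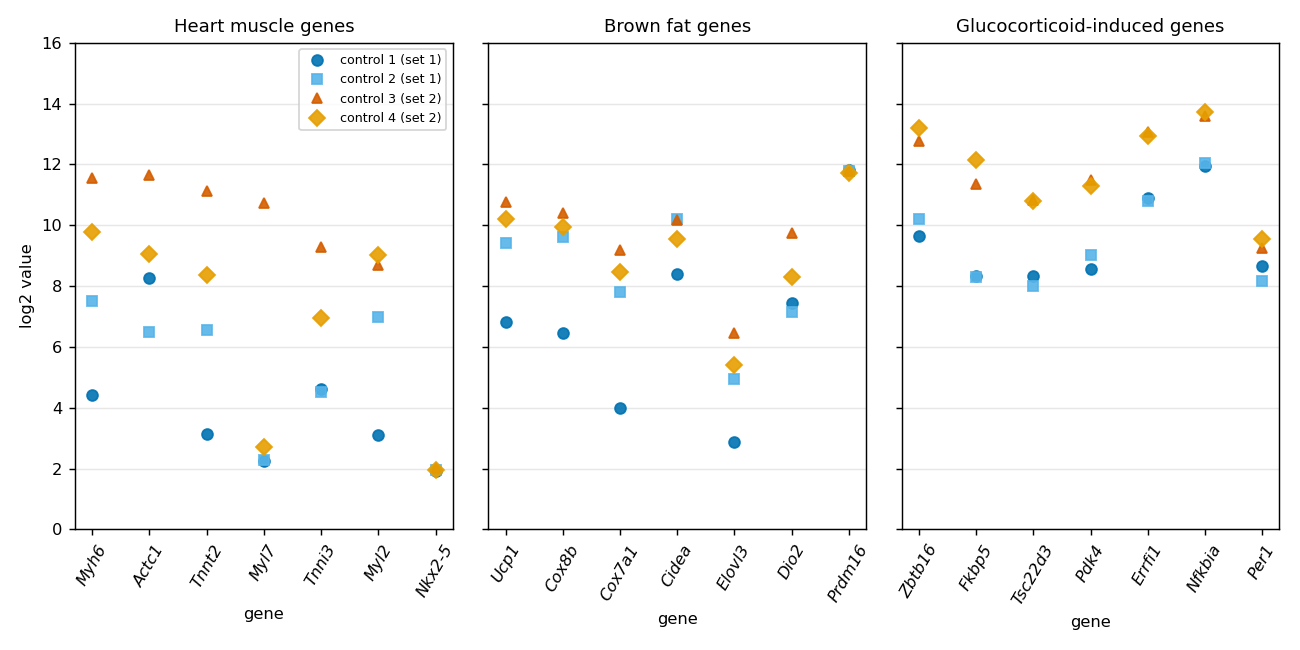
Log2 values (vertical axis) of selected genes (horizontal axis) in each control array, with 1 marker per array: heart muscle, brown fat and glucocorticoid-induced genes. Control 3 is highest for Myh6, Tnnt2 and Myl7, control 1 is lowest for Ucp1 and Cox7a1, and the markers of set 2 lie above those of set 1 for Zbtb16 and Fkbp5, while Nkx2-5 and Prdm16 overlap.

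The arrays otherwise resembled each other. Their medians over all probe sets were 3.72 to 3.79. Correlations over probe sets were 0.9953 and 0.9968 within a set and 0.9862 to 0.9881 between sets. Controls 2 and 4, of different sets, held the same value to the last digit in 19.1% of probe sets, and other pairs in 0.746% to 4.06%. Arrays of a set differed by over 1 log2 unit in 295 genes (controls 1 and 2) and 159 genes (controls 3 and 4), and arrays of different sets in 670 to 742 genes. Over all genes the median SD was 0.107, and 193 genes had an SD above 1. The SD was not even across levels. In the lowest of 10 equal groups of genes by level, with means up to 2.20, the median SD was 0.025. It was 0.24 in groups 5 and 6, with means between 3.50 and 7.12, and 0.144 in the highest group. In the lowest group all arrays gave nearly the same number, and a small SD there is no sign of a precise measurement.

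**Figure D4:**
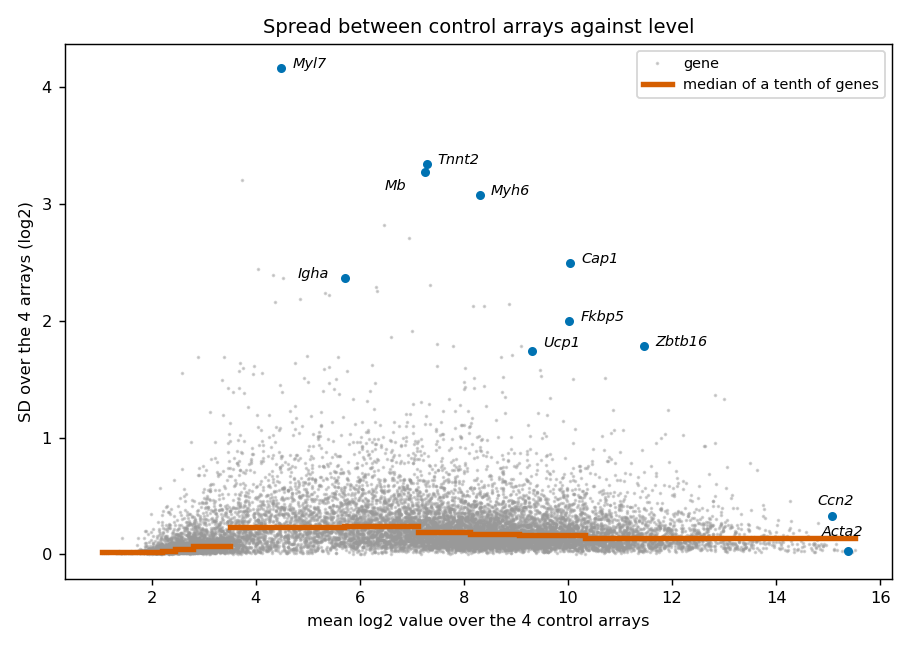
SD over the 4 control arrays (vertical axis, log2) against the mean log2 value (horizontal axis) for each gene, with the median SD of each of 10 equal groups of genes by level as an orange bar. Heart muscle genes such as Myl7, Tnnt2 and Myh6 stand at the top, and Acta2, by its brightest probe set, lies near 0 at the right.

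Among the 9093 genes above the median level, heart and striated muscle genes led the order of spread. The 5 with the highest SD were Tnnt2 (3.34), the oxygen carrier Mb (3.27), Myh6 (3.08), the giant sarcomere protein gene Ttn (2.83) and Myl2 (2.71). Next came Cap1, an actin-regulating protein, whose values were 12.54, 11.82, 8.24 and 7.57. The antibody chain gene Igha had 6.18, 8.87, 3.98 and 3.82, and Jchain, which joins antibodies of that class, 3.33, 6.12, 2.68 and 2.67. Control 2 was the highest of the 4 arrays for both. Of the 200 genes with the highest SD above that level, 11 were on the glucocorticoid list of 24, which was drawn up after the values were seen. The heart muscle list of 17 held 10, and the immediate-early and stress list of 24 held 5. The brown fat (9 genes), antigen presentation (14) and fibroblast (17) lists held 4 each. The contractile (29), endothelial (20), collagen (23) and ribosomal (48) lists held 0, as did others such as the Hox and proteasome lists. With 200 taken from 9093 genes, 0 in lists of such sizes is near the share over all genes and no sign of steadiness. In 105 of the 200 both arrays of set 2 lay above both of set 1, and in 74 both lay below. Over all 9093 genes the balance was the other way, with 2581 above and 3106 below.

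Several lists of cell types were highest in control 3, while others were not. Fibroblast markers were higher in control 3 than in the others, by 0.74 relative to the mean of the 4 arrays, and macrophage (0.52) and lymphatic endothelial (0.66) markers were highest there too. So were heart muscle (1.96), brown fat (1.09), skeletal muscle (0.62) and fat cell (0.35) genes. Control 1 was lowest for the heart muscle, brown fat, skeletal muscle, fat cell and lymphatic endothelial lists, and control 2 for the fibroblast and macrophage lists. Endothelial markers were highest in control 2 (0.33) and lowest in control 4 (-0.38). Platelet genes were lowest in control 2 (-0.97), where the platelet chemokine gene Ppbp was at 3.88, against 6.96 to 7.82 in the others. Contractile genes ranged from -0.04 to 0.07 around their mean. How far these lists follow the amount of each tissue in the sample was not tested.

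**Figure D5:**
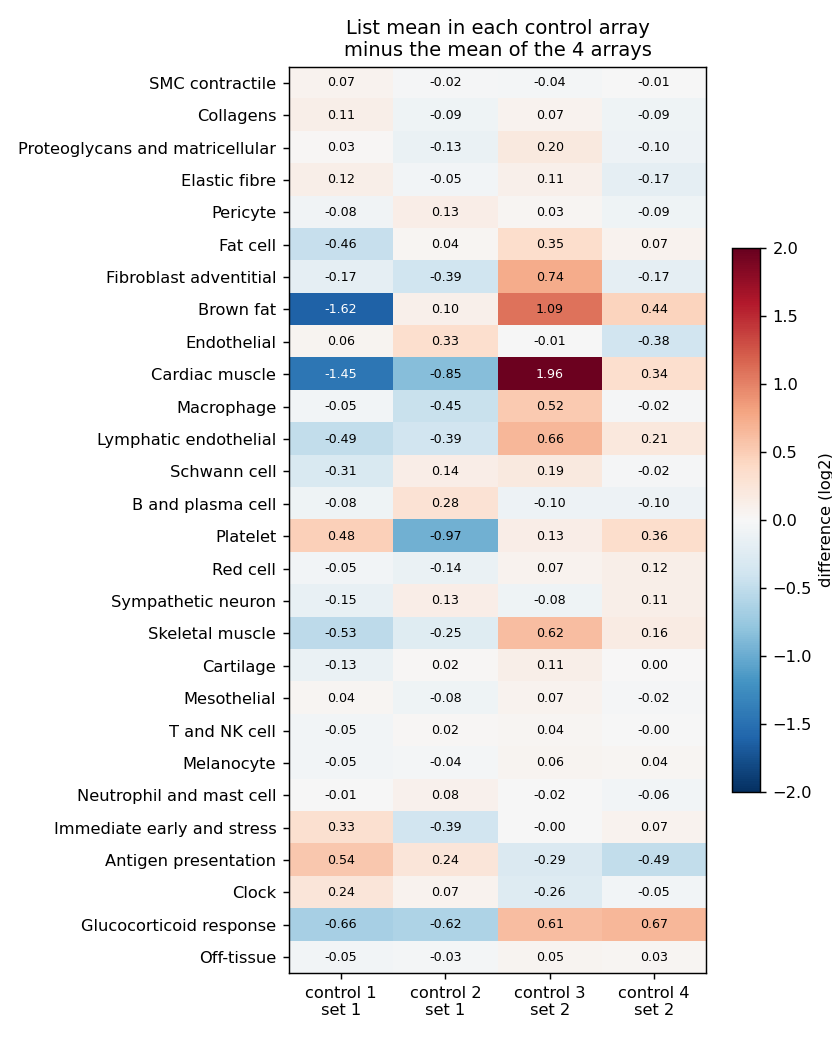
Mean log2 value of each list (rows) in each control array (columns) minus the mean of the 4 arrays, with the number printed in each field and red for higher. Heart muscle ranges from -1.45 in control 1 to 1.96 in control 3, brown fat from -1.62 to 1.09, and the contractile list from -0.04 to 0.07.

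The set number is the one label that divides the controls, and limma was used to ask which values differ between the sets. Over 27025 probe sets, 2811 passed an adjusted p of 0.05 (limma with Benjamini-Hochberg adjustment, 2 arrays against 2), which is 10.4%. Of these, 1039 were higher in set 2 (3.84%) and 1772 lower (6.56%). Over the brightest probe set of each of 12119 genes, 900 passed (7.43%), 420 higher (3.47%) and 480 lower (3.96%). The count of probe sets was 0 by limma when any of the 4 arrays was left out, and 4997 to 7391 then had an unadjusted p under 0.05. Such a fit sets 2 arrays against 1, whose spread is assumed to be like that of the others, so the loss of calls does not show whether a call depended on an array. The count was 5959 with all 8 arrays and genotype as a term. With arrays not known to be separate mice, the p-values cover no more than array-to-array spread, and the set cannot be told apart from whatever else its arrays share.

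Higher in set 2 with the smallest limma p were, in order, Errfi1, Nfkbia, Gdap10, Tsc22d3, Klf13, Vldlr, Crim1, Cdkn1a, Atp7a and Raly. They included targets of the glucocorticoid receptor, which responds to stress hormones, such as Errfi1 and Tsc22d3. Fkbp5, Zbtb16 and Pdk4, also given below, lay outside that group. Errfi1, which dampens the epidermal growth factor receptor, had 10.89, 10.81, 13.05 and 12.94 in controls 1 to 4 (difference 2.15, SE 0.08, limma adjusted p = 0.00942). Tsc22d3, a glucocorticoid-induced leucine zipper protein, rose by 2.64 (SE 0.14, adjusted p = 0.0105). Fkbp5, a chaperone of the receptor, had 8.32, 8.31, 11.35 and 12.13 (difference 3.43, SE 0.27, adjusted p = 0.0165). A second probe set of Fkbp5 had 5.37, 5.56, 7.85 and 8.75. The transcription factor Zbtb16 had 9.66, 10.22, 12.78 and 13.21 (difference 3.06, adjusted p = 0.0165), and Pdk4, which slows glucose oxidation, rose by 2.59 (adjusted p = 0.014). Both arrays of set 2 lay above both of set 1 in each of these genes. A list of 24 glucocorticoid-induced genes was drawn up after these values were seen, so it is no independent evidence. Of its 23 tested members, 15 were higher in set 2 (3.47% of all genes were) and 0 lower at the threshold, with a median difference of 1.33 against 0.015 over all genes. The list members Dusp1 (13.43, 13.21, 13.22 and 13.25) and Klf9 (14.45, 13.77, 13.91 and 14.03) overlapped between sets. Ddit4 (7.60, 8.48, 7.43 and 6.98) lay lower in both arrays of set 2 without passing (adjusted p = 0.208).

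Lower in set 2 were genes of several kinds. Prmt1, an arginine methyltransferase, had 10.88, 10.79, 8.17 and 8.02 in controls 1 to 4 (difference -2.74, SE 0.10, limma adjusted p = 0.00942). The signalling protein gene Akt1s1 had a difference of -2.49 (SE 0.10, adjusted p = 0.00942). Cap1 had one of -4.28 (SE 0.34, adjusted p = 0.0165), and its other probe set had 11.92, 11.25, 7.19 and 6.34. In Cuedc1 the brightest probe set fell (-2.45, adjusted p = 0.0125), while another, at 8.32, 7.96, 7.68 and 7.78, moved far less. The water channel Aqp1 (-1.36, SE 0.08, adjusted p = 0.0125) and the microfibril gene Mfap4 (-1.03, SE 0.06, adjusted p = 0.0125) fell. Of 13 antigen presentation genes tested, 4 fell, where 3.96% of all genes did, and 0 rose: Cd74 (-2.38, adjusted p = 0.0294), H2-Aa (-1.81, adjusted p = 0.0398), H2-Eb1 (-1.51, adjusted p = 0.033) and Tap1 (-1.42, adjusted p = 0.0365).

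Of 29 contractile genes, 2 rose and 4 fell between sets, with a median of -0.03. Over all genes tested 3.47% rose and 3.96% fell, which for lists of 15 to 29 genes is about 1 gene or fewer in each direction. The small heat shock genes Hspb1 (1.18) and Cryab (0.47) rose, and Csrp1 (-0.74), Myl6 (-0.93), Pdlim7 (-0.41) and Ppp1r14a (-0.44) fell. Of 25 transcription regulators, 3 rose and 4 fell. Those that rose were Myocd (1.18, SE 0.09, limma adjusted p = 0.014), Klf2 (1.19) and Tead1 (0.64), and the largest fall was that of Foxf1 (-1.91). Of 15 heart muscle genes tested, Myl3 (1.84), Tnnc1 (3.72) and Nppa (1.46) rose and Myh7 (-1.85) fell. Myh6 did not pass (4.69, SE 1.21, adjusted p = 0.086), nor did Ucp1 (2.36, adjusted p = 0.177). Of 19 Hox genes tested 4 fell, Hoxa2 (-1.02), Hoxa3 (-0.99), Hoxa9 (-1.11) and Hoxa10 (-0.96), and 0 rose. Of 20 endothelial markers, Pecam1 (-1.0), Erg (-0.90) and Mmrn2 (-1.17) fell and 0 rose. For the 17 fibroblast and 18 macrophage markers tested 0 passed in limma, though 14 and 18 of them had a higher mean in set 2. Their median differences were 0.625 and 0.505, against 0.015 over all genes, of which 6265 were higher and 5852 lower. Of the 100 highest genes 6 passed, near the 7.43% called over all genes: Ddx3x, Rock1, Serpinh1 and Tns1 were higher in set 2, and Clu and Csrp1 lower.

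Genes of the daily clock also varied between arrays. Arntl, the core activator of the clock, had 2.84, 6.04, 5.83 and 5.30 in controls 1 to 4. Dbp, which the clock drives in another phase, had 13.75, 12.88, 11.58 and 12.23. Npas2, a partner of Arntl, had 4.86, 7.21, 6.48 and 5.10. Control 1 was the lowest array for Arntl and Npas2 and the highest for Dbp. Between sets, 2 of 16 clock genes fell (3.96% of all genes did), Hlf (-1.27, limma adjusted p = 0.0231) and Bhlhe41 (-2.34, adjusted p = 0.0396), and 0 rose. The labels do not give the hour of death.

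Immediate-early genes, which respond quickly to stimulation or handling, were at high levels. With stress genes their median was 10.23 over 24 genes (9.38 with the median over the probe sets of a gene), and 6 were among the 1000 highest. The phosphatase gene Dusp1 was at 13.28 ± 0.10, the transcription factor Jund at 12.54 ± 0.30 and Egr1 at 11.39 ± 0.32. Hspa1b, a heat shock chaperone, had a mean of 12.83 ± 1.36 over the 4 arrays. Its value was 12.59 in control 1, 13.76 and 13.97 in set 2, and lowest in control 2. It was higher in both arrays of set 2 without passing (limma adjusted p = 0.0888). Fos was at 10.72 ± 0.64. Between sets Jun (-0.70) and Jund (-0.52) fell and 0 of the 24 rose, where 3.96% of all genes fell. Myc (3.53) was in the off-tissue range.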

How the data were processed

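Aorta RNA for the 4 control arrays was labelled with biotin and hybridised, per the labels' protocols. The deposited values are on a log2 scale, judged from their range of 0.9 to 15.54 in the control arrays. GCOS, without a version, is named per the submitters' processing notes. How background, normalization and summary per probe set were done is not stated there, and any floor would set the spread at low levels.

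Of 45037 probe sets, 34945 had 1 gene symbol in the platform annotation, 932 had several and 9160 had none. Probe sets without a single symbol were not named, and 35 of them were brighter than rank 50. A gene is represented by its brightest probe set, judged by the mean of the control arrays. The members and lists were chosen with earlier results of these data known. Of the lists, 46 were fixed at the start and 3 (glucocorticoid response, antibody chains and mitochondrially encoded genes) came after the values were seen. Among antibody chains 5 of 12 had a probe set (median 4.07), and among mitochondrially encoded genes ND5 alone (14.81). The rule for named genes took the 50 highest, the 5 highest and 3 lowest of each list with all cell type markers, those with extreme SD or set p, and the Hox and sex-linked genes. Other list members, such as Pde5a, Srf, Fos and Arntl, and Cuedc1's second probe set were chosen after their values were seen.

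Sets were compared with limma 3.58.1 in R 4.3.3 (mean-variance trend, two-sided, Benjamini-Hochberg), leaving out 40% of probe sets, the dimmest ones. The script was tested on simulated data. The number of arrays limits the precision. Alternatives were other probe set rules, filters, normalizations and variance models, and each array left out.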

Additional observations from a re-analysis of the deposited data

Results flagged for a closer look

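Among 48 lists and 41 genes examined for an array far from the other 3 by Dixon's test, 2 lists and 2 genes stood out. Chance gives about 1 in 20, or 4.45 of these 89 tests, and 4 were found. That number assumes independent tests chosen without regard to their values. Some lists share members, and members were chosen with earlier results known, so the comparison is rough. None of the 4 is taken here as more than chance. Myl7 was at 10.73 in control 3 and at 2.24, 2.28 and 2.72 in the others. Mcm6, a DNA replication gene, was at 6.37 in control 1 and above 9 in the others. A second probe set of Mcm6 had 4.53 in control 1 and 8.72, 8.52 and 8.97 in the others, and a dim one had 2.53 to 2.69 in all. The list mean of B and plasma cell genes was 5.23 in control 2 and 4.85 to 4.86 in the others, and its member Jchain was at 6.12 in control 2 and at 3.33, 2.68 and 2.67 in the others. The list mean of S100 and annexin genes was 7.88 in control 1 and 7.83 in each of the others.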

How the results depend on the processing

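With the median over the probe sets of a gene, 65 of the 100 highest genes were shared with the main order, and list medians were 12.15 for contractile, 7.46 for endothelial, 7.77 for fibroblast, 8.33 for fat cell and 2.45 for off-tissue genes, with a median SD of 0.095 over all genes. Without probe sets of suffix _x_at, _s_at or _a_at, 46 of the 100 were shared, 3 ribosomal genes were among the 100 highest, and the medians were 7.92 (endothelial), 8.76 (fat cell) and 2.48 (off-tissue). Without _x_at and _s_at alone, an alternative chosen after seeing the data, the off-tissue median was 2.44. With an array left out, the contractile median ranged from 13.73 to 13.92, the median SD from 0.085 to 0.102, and the count of probe sets that differed between sets was 0 each time, with 1 array alone in its set. That count was 5959 with all 8 arrays and 1975 to 3226 under the other filters, normalizations and variance model. The other causes were not tested. No paired analysis was possible because there is 1 group and the replicate numbers follow accession order.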
